A study of Homo sapiens with 6 samples.

Results

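The m6A peaks found in U2OS cells with DF2 siRNA 1 were set beside those found with DF2 siRNA 2, a second siRNA against the same target, YTHDF2 (DF2). All rows of both deposited peak lists were used, 13147 with siRNA 1 and 13310 with siRNA 2, which is 26457 of the 41729 peaks in the 3 lists of the series. A peak was shared if it had at least 1 base of a block (an exon segment of the peak) in common with a peak of the other siRNA list on the same strand, and otherwise it was called alone. The list of the control siRNA took no part in these classes and appears only beside them.

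The series holds 6 RNA samples, an input and an m6A immunoprecipitate (m6A-IP) for each of 3 treatments, namely control siRNA, DF2 siRNA #1 and DF2 siRNA #2. All came from U2OS, an established line from a human osteosarcoma that the labels also describe as epithelia cells and as wild type, so every group shares 1 line and differs by the siRNA. Cytoplasmic RNA was broken to about 100 nt and enriched with an antibody to m6A, and input RNA was sequenced without enrichment. Each treatment has 1 peak list, marked as merged over replicates, although the labels give 1 input and 1 m6A-IP per treatment. There is therefore no replicate error and no test between the siRNAs, and p-values were not computed. The 95% exact binomial (Clopper-Pearson) intervals below cover only the counting of peaks or genes, and peaks of the same gene are not independent. The lists give no read counts, and the depth under a peak is unknown.

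N6-methyladenosine (m6A) is the most common internal mark of messenger RNA, placed by a nuclear complex around METTL3 and METTL14, mostly near stop codons and in 3′ untranslated regions (3′ UTRs). YTHDF2 is a cytoplasmic reader that binds m6A and brings the CCR4-NOT deadenylase, which shortens the poly(A) tail and starts decay of the RNA. Antibodies to m6A also recognise m6Am, a cap-adjacent form found on RNAs that begin with A, so peaks at the 5′ end can hold either mark. An siRNA can act on RNAs other than its target, and a pair of siRNAs against the same target is a common way to set what they share apart from what differs.

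The commonest core of the m6A consensus is GGAC, and the sequences below show it where a peak lay over the annotated start of a gene. They are the 20 bases around the first GGAC found in the first 50 transcribed bases, on the strand of the gene, from RefSeq (GRCh38.p14), with GGAC in capitals. The 3 genes per class were taken from genes with a peak over the printed bases, so each holds the core by the way it was chosen. They were ranked by the highest score percentile of any peak of the gene. That peak can lie elsewhere in the gene, as in DAG1. DAG1, ANKRD11 and CYBC1 had such a peak in both lists.
DAG1, chr3:49470145-49470164, plus strand: cggcgcgcGGACagccagtc
ANKRD11, chr16:89490523-89490542, minus strand: tgcgcgatGGACcgagggcc
CYBC1, chr17:82449690-82449709, minus strand: ccatgatgGGACtttcagtt
MPZL1, CLIC1 and HNRNPAB had such a peak with siRNA 1 and no peak at all with siRNA 2.
MPZL1, chr1:167721997-167722016, plus strand: cgcggctgGGACcggagtgg
CLIC1, chr6:31736499-31736518, minus strand: ccgggagaGGACcgagctgg
HNRNPAB, chr5:178204543-178204562, plus strand: accgcgcgGGACggagcttg
SLU7, CHMP4A and CD68 had such a peak with siRNA 2 and no peak at all with siRNA 1.
SLU7, chr5:160419040-160419059, minus strand: tgtcggatGGACttggggct
CHMP4A, chr14:24213466-24213485, minus strand: agtctggaGGACgctgaggg
CD68, chr17:7579645-7579664, plus strand: gcctagctGGACtttgggtg

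Of genes with a 5′ UTR peak in both lists, 23.4% of 1243 with a start sequence held GGAC in their first 50 bases (interval 21.1 to 25.9). The share was 17.1% of 263 genes with a 5′ UTR peak with siRNA 1 and no peak with siRNA 2 (12.8 to 22.2), and 20.8% of 144 genes the other way (14.5 to 28.4). Of all 27305 genes with a start sequence 18.8% held it, and of the 6878 with a peak in either list 19.9% did. The first transcribed base was A in 52.4%, 46.8% and 46.5% of these classes in the same order, and in 45.7% of genes with any peak. A further class, defined after the values were seen, held genes where the peak lay over the start itself. There GGAC was found in 27.3% of 556 genes with both siRNAs (23.7 to 31.2). The share was 17.1% of 146 with siRNA 1 alone (11.4 to 24.2) and 15.9% of 63 with siRNA 2 alone (7.88 to 27.3). The intervals of both alone classes overlap that of genes with both siRNAs. GGAC was searched on the strand of the gene only, and a match is no mapped site.

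The targeted gene itself carried the same peak with both siRNAs. YTHDF2 (ENSG00000198492) had 1 peak per list, and its 9 blocks were identical with siRNA 1 and siRNA 2, covering 1600 bases of coding sequence, stop codon and 3′ UTR within chr1:28742575-28769116 (hg38, plus strand). Its fold enrichment over input, the authors' value, was 57.2 with siRNA 1 and 53.1 with siRNA 2, and 91.0 in control. Its deposited score, a whole number that the sources used here do not define, was 143 with siRNA 1, 203 with siRNA 2 and 4863 in control. Scores run on a different scale in each list (median 33 with siRNA 1, 99 with siRNA 2), so they are given below as percentiles within a list, where 100 is the highest score. YTHDF2 stood at percentile 84.3 with siRNA 1, 66.6 with siRNA 2 and 99.1 in control. A peak list does not measure the level of YTHDF2 RNA or protein, so it is no check of the knockdown. Where percentiles or folds of different lists are given together, no change between them is measured.

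The lists were alike in their outline. Both had a median covered width of 600 bases, and 17.3% of peaks in each had a false discovery rate (FDR) of 0.01 or more. The siRNA 2 list covered more sequence, 9.87 Mb against 8.95 Mb. Of the markers of cell type, RUNX2, the master regulator of osteoblasts, and COL1A1, the main bone collagen chain, had peaks in both lists. So did ZEB1 of 5 mesenchymal, KRT8 and CLDN4 of 6 epithelial and CDH5 of 3 endothelial markers. VIM (mesenchymal) and PECAM1 (endothelial) had a peak with siRNA 1 alone. The remaining markers of these 3 types had none, nor had the other 8 of 10 osteoblast markers or any of the 4 blood markers. A missing peak does not show that a gene is silent.

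Most peaks were found with both siRNAs. Of siRNA 1 peaks, 83.6% (10991) were shared (interval 83.0 to 84.2) and 16.4% (2156) were alone. Of siRNA 2 peaks, 80.5% (10720) were shared (79.9 to 81.2) and 19.5% (2590) were alone. In bases, the 7.68 Mb in common made up 85.8% of the sequence covered with siRNA 1, 77.7% of that with siRNA 2 and 68.9% of their union. The same measure was 56.8% of the union between siRNA 1 and control and 65.2% between siRNA 2 and control, and these 3 values share lists. When 50% of the bases of each peak had to be common, 75.6% of siRNA 1 peaks and 74.6% of siRNA 2 peaks counted as shared.

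At the level of genes, 78.3% of the 9521 genes with a peak in either list (7455) had one in both. Another 9.85% (938) had a peak with siRNA 1 alone and 11.8% (1128) with siRNA 2 alone. Among genes with a peak in both lists, 71.3% had the same number of peaks in each. Only 1.48% of them (110 of 7455) had peaks in both lists with no base in common. About as many alone peaks lay in genes that the other list marked elsewhere (53.8% with siRNA 1, 51.4% with siRNA 2) as in genes that it did not mark.

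Sharing varied with where in the transcript a peak lay. Peaks that include a stop codon were shared most often and at nearly the same rate from both sides, 90.6% of 5719 with siRNA 1 and 91.1% of 5811 with siRNA 2. Coding peaks were shared in 84.7% and 83.5%. Peaks in 3′ UTRs were shared in 82.6% of siRNA 1 and 74.9% of siRNA 2 peaks.

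Peaks in 5′ UTRs and in non-coding RNAs differed between the sides in opposite ways. Peaks in 5′ UTRs were shared in 68.1% of 2480 siRNA 1 peaks (66.2 to 69.9) and 77.4% of 2206 siRNA 2 peaks (75.6 to 79.2). Peaks in non-coding RNAs were shared in 84.5% of 1000 siRNA 1 peaks (82.1 to 86.7) and 56.8% of 1416 siRNA 2 peaks (54.2 to 59.4). Intervals for these regions did not overlap between the sides. Peaks with bases of both UTRs and no stop codon were shared in 78.9% of 76 siRNA 1 (68.1 to 87.5) and 89.3% of 75 siRNA 2 peaks (80.1 to 95.3), with overlapping intervals. Peaks without an annotated transcript part were shared in 74.4% of 172 siRNA 1 and 37.4% of 289 siRNA 2 peaks.

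Narrow peaks were shared least. Of peaks about 1 unit of 200 bases wide, 49.7% with siRNA 1 and 50.3% with siRNA 2 were shared, and of peaks of 7 or more units 99.8% and 98.5% were. Within the narrowest peaks the shares differed by region. There, 41.6% of siRNA 1 and 61.5% of siRNA 2 peaks in 5′ UTRs were shared, and 65.2% and 29.5% of those in non-coding RNAs. At 3 units 91.3% and 87.5% of 5′ UTR peaks were shared, and of the widths from 1 to 4 units the siRNA 1 side was lower at 1 and 2.

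**Figure D1:**
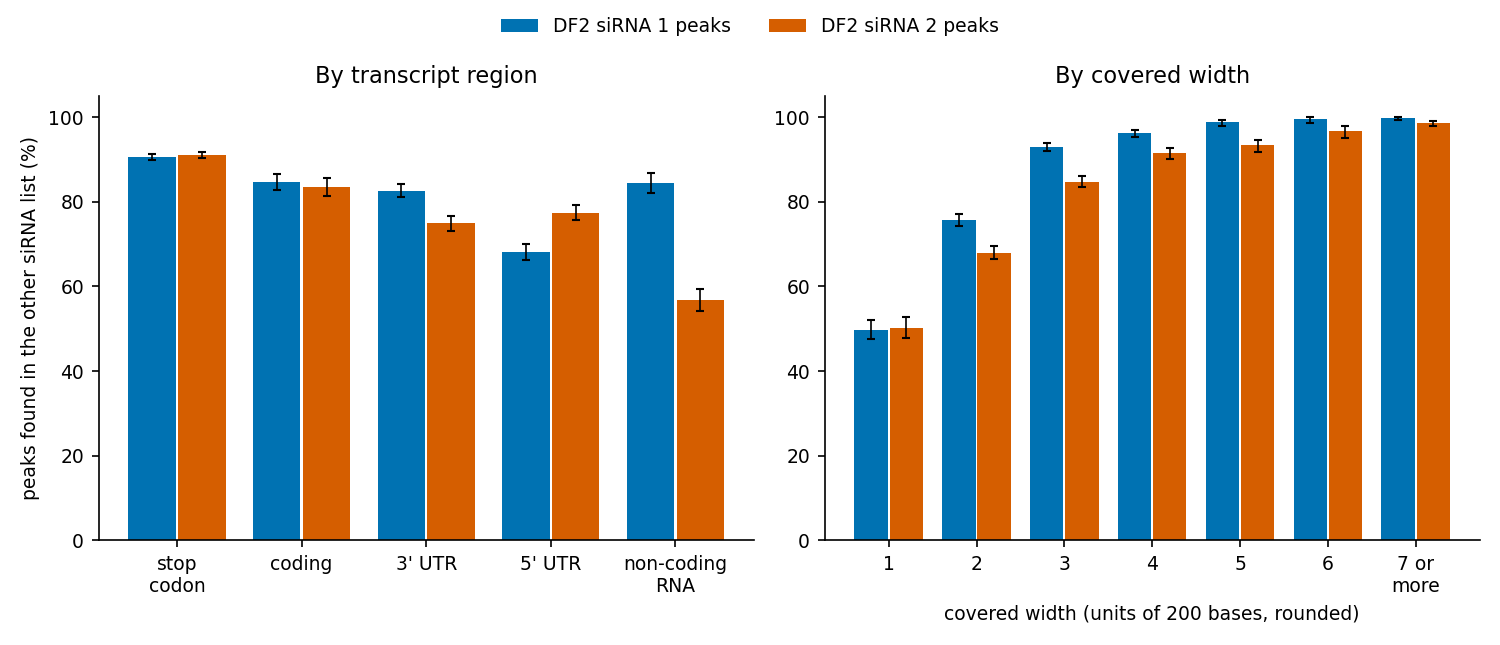
Share of peaks of each siRNA list (percent, y axis) with a base in common with the other list, by transcript region (left) and by covered width in units of 200 bases (right), with blue bars for siRNA 1, orange bars for siRNA 2 and black lines for 95% exact binomial intervals. Stop codon peaks stand at 90.6% and 91.1%, the 5′ UTR and non-coding RNA bars differ between the siRNAs in opposite directions, and both lists climb from about 50% at the narrowest width to 99.8% and 98.5% at the widest.

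Sharing climbed with the score of a peak, and more steeply from the siRNA 2 side. In the lowest decile of scores 63.4% of siRNA 1 peaks and 20.6% of siRNA 2 peaks were shared. In the highest decile, 96.7% of siRNA 1 peaks were shared, and with siRNA 2 all 1331 peaks of the highest decile and all 1328 of the next were. Ranked by fold, the top decile was shared in 99.9% of peaks from both sides. The siRNA 1 list held 43 alone peaks in its top decile by score and 1 in its top decile by fold.

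**Figure D2:**
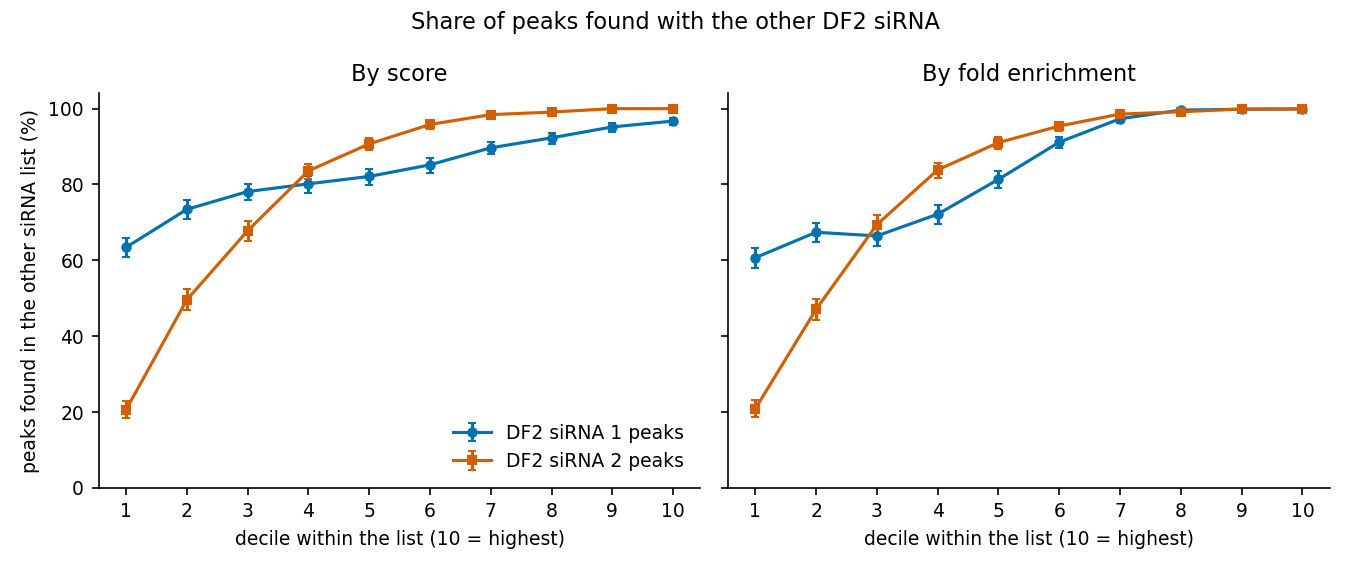
Share of peaks found with the other siRNA (percent, y axis) by decile of the score (left) and of the fold enrichment (right) within each list, 10 being the highest, with 95% exact binomial intervals as bars. The siRNA 2 line climbs from 20.6% to 100% by score, while the siRNA 1 line starts at 63.4% and ends at 96.7%, and by fold both lines end at 99.9%.

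Of the peaks paired between the siRNAs, close to 50% had the same blocks. Pairing each peak with the peak of the other list that shares most bases with it, where the choice was mutual, gave 10397 pairs, and in 49.4% of them all blocks were identical. The figure was 35.3% of pairs between siRNA 1 and control and 42.7% between siRNA 2 and control. Both peaks of a pair lay in the same region class in 92.1% of pairs. The 5′ end was the same in 70.4% and the 3′ end in 68.2%.

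Where the widths differed, siRNA 2 more often had the wider peak, in 31.7% of pairs against 16.6% for siRNA 1. By region, pairs are grouped here by the region of the siRNA 1 peak. In non-coding RNAs the siRNA 2 peak was wider in 48.9% of pairs and the siRNA 1 peak in 13.7%. In peaks without an annotated transcript part the shares were 49.6% and 9.24% of 119 pairs. Of these 119, 80.7% had the same class with siRNA 2. A siRNA 2 peak that reached an annotated part stayed in this class, while a siRNA 1 peak that did so left it. In 5′ UTRs the shares were close, 21.9% and 20.04%. Across all pairs the median fold of siRNA 1 over siRNA 2 was 0.84, and it was 0.91 for stop codon peaks, 0.84 for 5′ UTR peaks and 0.58 for non-coding RNA peaks. As folds were computed by the authors within each library pair, this ratio has no common scale.

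SON, which encodes a nuclear speckle protein and is a reported YTHDF2 target, had a wide peak that was split in the siRNA 2 list. With siRNA 1 it had 1 coding peak of 5400 bases (chr21:33549545-33554944), and with siRNA 2 the same stretch held a peak of 2800 and a peak of 2000 bases. AHNAK, a giant scaffold protein, had a peak of 8200 bases with siRNA 1 and 5800 with siRNA 2. PKD1, the polycystin gene, had 4000 and 2200 bases, ZNF646 5600 and 3800, and ZBTB33 (Kaiso) 2600 and 400. In the other direction TMEM184A had 2000 bases with siRNA 1 and 5000 with siRNA 2. The Hedgehog factor GLI2 had 1000 bases of 3′ UTR with siRNA 1 and 3800 reaching into coding sequence with siRNA 2. MORN1 (600 and 3400), GAS6-AS1 (600 and 3200) and VCPIP1 (1400 and 4000) were the next. These are the 5 largest width differences in each direction.

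The ranks of shared peaks were close. Spearman's rank correlation between scores over the 10397 pairs was 0.94, and between folds 0.82, as descriptions, since pairs share the cell line and the expression of their gene. The rank correlation with control was 0.90 for siRNA 1 and 0.92 for siRNA 2 by score, and 0.59 and 0.74 by fold, and these share lists. The score percentile of a pair differed by a median of 6.06 points, and by less than 10 points in 69.0% of pairs. It differed by more than 30 points in 133 pairs, of which 103 stood higher with siRNA 2 and 30 with siRNA 1.

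The same genes led both lists. SLC7A5, which encodes the LAT1 amino acid transporter, held the highest score of each, in a 3′ UTR peak of 1745 bases with siRNA 1 and 1600 with siRNA 2 (chr16:87830023-87831767, minus strand). The fold of that peak was 656 with siRNA 1 and 226 with siRNA 2. Its stop codon peak came next in both lists, with folds of 436 and 132. BASP1, a membrane-associated signalling protein, followed with folds of 205 and 93.3. DAG1, which encodes dystroglycan, had an identical peak of 3400 bases in both lists with folds of 200 and 90.4. CTSZ (cathepsin Z), PRSS23, EPPK1 (epiplakin), IER2, EIF4G1 (the eIF4G scaffold of translation initiation) and PPIB (cyclophilin B) completed the 10 pairs with the highest mean percentile. In 4 of these pairs, those of DAG1, PRSS23, EIF4G1 and PPIB, the blocks were identical.

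Large gaps in rank were found in few genes. Of the 8 largest with the higher percentile on the siRNA 2 side, 7 are given here. TEX19, a germ-line gene, had folds of 8.88 and 119 at percentiles 16.3 and 75.2. ZNF70 (3.05 and 51.6), the histone chaperone gene NASP (16.3 and 63.0), LINGO1, ACSF3, RNF213 and LYSMD4 were the others. The NASP and LYSMD4 peaks were identical in their blocks, so there the gap came with no shift of borders.

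The 8 largest gaps the other way were led by NDUFB11, a subunit of respiratory complex I, at percentile 81.0 with siRNA 1 and 23.8 with siRNA 2. Its fold did not follow its score, being 10.5 with siRNA 1 and 12.97 with siRNA 2. TM4SF1, a cell-surface tetraspan protein, stood at 93.1 and 45.4, again with a lower fold with siRNA 1 (9.77) than with siRNA 2 (14.9). EPGN, a growth factor of the EGF family, had an identical peak of 814 bases with folds of 32.7 and 15.9. PRG4 (lubricin), CACTIN-AS1, SAMD11, EIF5A and C1QTNF1 were the others. The fold was higher with siRNA 1 in all of these but NDUFB11 and TM4SF1.

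**Figure D3:**
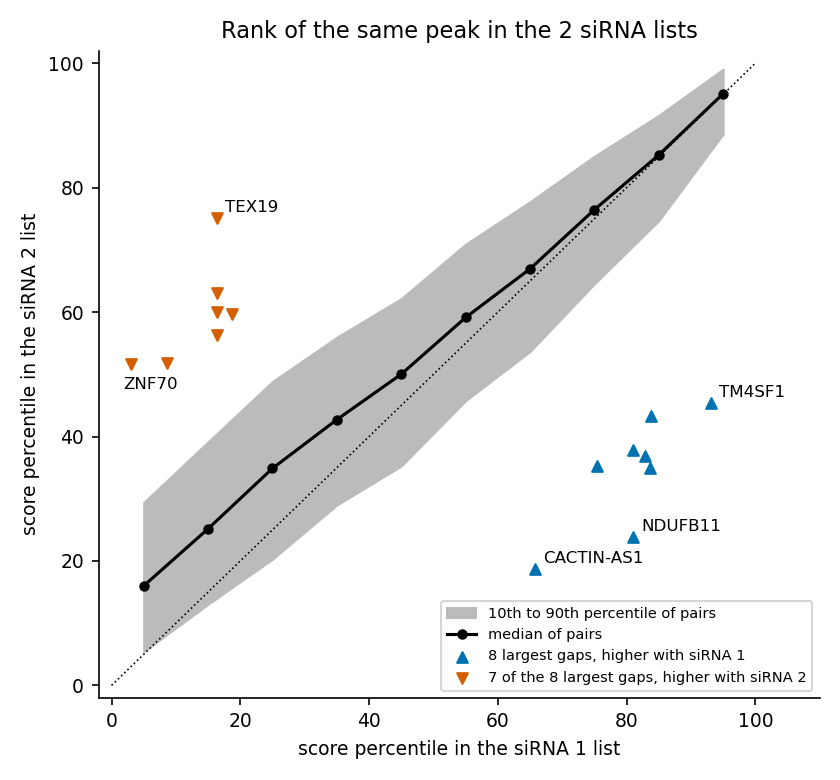
Score percentile of a peak in the siRNA 2 list (y axis) against that of its partner in the siRNA 1 list (x axis), with black points for the median of the pairs in each decile, a grey band from the 10th to the 90th percentile of pairs, a dotted line of equality and triangles for the 8 largest gaps with the higher percentile with siRNA 1 and 7 of the 8 largest with siRNA 2. The medians run close to the dotted line in the upper deciles, and TEX19 lies far above it, at 16.3 with siRNA 1 and 75.2 with siRNA 2.

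Peaks without a partner differed in kind between the siRNAs. Of the 2156 peaks with siRNA 1 alone, 36.7% lay in 5′ UTRs (34.7 to 38.8), 24.9% held a stop codon and 7.19% lay in non-coding RNA. Of the 2590 with siRNA 2 alone, 19.2% lay in 5′ UTRs (17.7 to 20.8), 19.9% held a stop codon and 23.6% lay in non-coding RNA (22.0 to 25.3). Shared peaks had 15.4% and 15.9% in 5′ UTRs and 47.2% and 49.4% at stop codons, siRNA 1 first. The 5′ UTR share of siRNA 1 alone peaks was 18.5% when peaks that also touch coding sequence were left out, against 13.7% for siRNA 2. It was 24.9% against 13.97% in the 50% of each list with the higher fold. There both lists were cut before they were compared, so a peak whose partner fell below the cut counted as alone. These 1059 of 6574 siRNA 1 and 1181 of 6655 siRNA 2 peaks are another group than the alone peaks above. The direction was the same under each of these choices, and the size of the difference was not.

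Alone peaks were weaker and narrower than shared ones in both lists. Their median fold was 8.35 with siRNA 1 and 8.73 with siRNA 2, against 18.1 and 23.2 for shared peaks. Their median width was 400 bases against 600. Their median score percentile was 28.0 with siRNA 1 and 13.04 with siRNA 2. An FDR of 0.01 or more was found for 52.6% of siRNA 1 alone and 44.6% of siRNA 2 alone peaks, and for 10.4% and 10.7% of shared peaks.

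The control list held many of the siRNA 2 alone peaks and fewer of the siRNA 1 alone peaks. A control peak overlapped 66.6% of siRNA 2 alone peaks (64.7 to 68.4) and 34.1% of siRNA 1 alone peaks (32.1 to 36.1), and 90.8% of shared peaks from either side. In 5′ UTRs the control list overlapped 17.05% of 792 siRNA 1 alone peaks and 48.2% of 498 siRNA 2 alone peaks. At stop codons it overlapped 42.9% and 74.0%, and in non-coding RNA 45.2% and 70.8%. Of genes marked with siRNA 1 alone, 41.8% (392 of 938) had a control peak, and of genes marked with siRNA 2 alone, 72.9% (822 of 1128). The control list is longer, at 15272 peaks, and whether depth of the libraries differed was not tested.

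**Figure D4:**
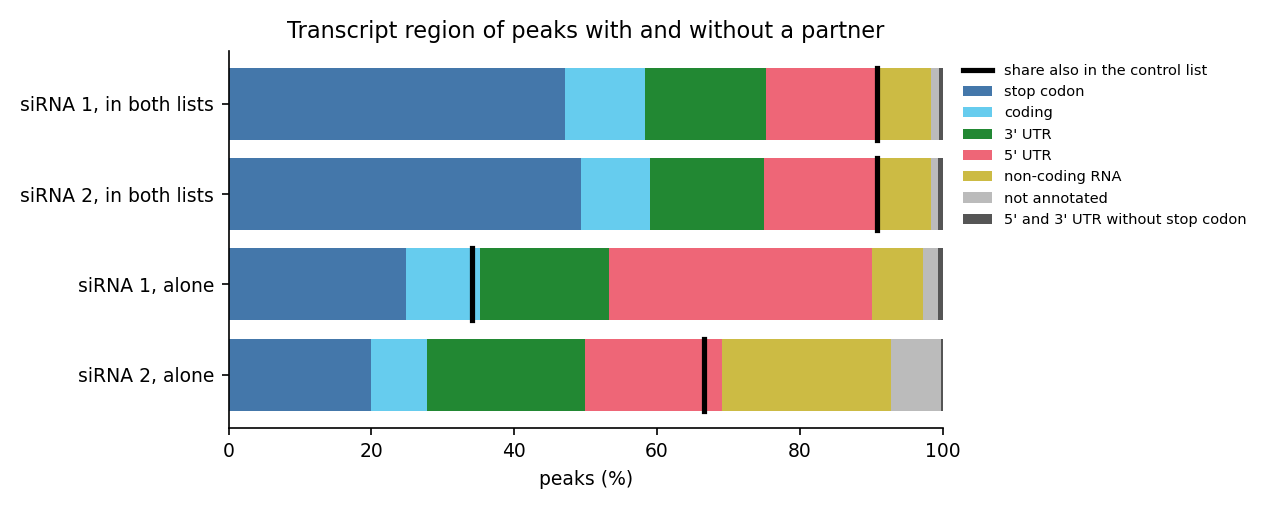
Share of peaks (percent, x axis) by transcript region, in coloured segments, for peaks in both lists and peaks with 1 siRNA alone, with a black mark at the share that also overlaps a control peak. The siRNA 1 alone bar holds the widest 5′ UTR segment (36.7%) and the siRNA 2 alone bar the widest non-coding RNA segment (23.6%), and the control mark lies at 34.1% and 66.6%.

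The next shares are within genes marked by both siRNAs, a condition that by itself favours sharing of a gene's only or strongest peak. A gene's only peak was shared in 97.6% of siRNA 1 and 97.9% of siRNA 2 cases, and the strongest of several in 96.7% and 97.2%. The weaker peaks of such genes were shared in 79.6% of 4671 siRNA 1 and 74.8% of 4568 siRNA 2 peaks. Protein-coding genes by RefSeq biotype had a peak in both lists in 82.2% of 8001 cases. Long non-coding RNA genes did so in 66.8% of 349, with 8.31% marked with siRNA 1 alone and 24.9% with siRNA 2 alone. Pseudogenes were marked by both in 99 of 180, and symbols with no RefSeq match in 55.3% of 978. These splits were chosen after the values were seen.

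The 5 genes with most peaks differed in their number of peaks between the siRNAs. ZFHX3, a large homeobox and zinc finger factor, had 10 peaks with siRNA 1 and 8 with siRNA 2, and 8 of the former and all 8 of the latter were shared. CFLAR, which encodes the caspase inhibitor cFLIP, had 8 and 9, with 7 shared on each side. RNF213, a giant ubiquitin ligase, had 10 and 7, with 7 shared on each side. KMT2D, a histone H3 lysine methyltransferase, had 9 and 7, with 8 and 7 shared. A peak of 2800 bases in KMT2D with siRNA 2 (chr12:49031012-49033952) spanned siRNA 1 peaks of 1000 and 1600 bases. DST (dystonin) had 6 and 9, with 5 and 6 shared.

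The genes with the highest scores with siRNA 1 and no peak with siRNA 2 began with non-coding RNAs. MTATP6P1 and MTND2P28 are nuclear copies of mitochondrial genes on chromosome 1, with folds of 61.9 and 24.96. RNaseP_nuc and RPPH1 are overlapping models of the RNA of RNase P (chr14:20343086-20343485 for RPPH1), with folds of 41.2 and 35.7. RN7SL1, the 7SL RNA of the signal recognition particle, overlaps ENSG00000283029 at a fold of 15.9. CH507-513H4.3 and RP5-857K21.6 were the other 2 non-coding models, with folds of 38.1 and 14.6, and a control peak overlapped the former. Reads from copied sequences cannot be assigned with certainty, and which of these 8 models have copies was not checked. These 8 peaks are therefore uncertain, and the overlapping models are not separate genes.

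Protein-coding genes were among the 12 as well. PRSS56, a serine protease gene, had a stop codon peak at percentile 97.5 with a fold of 20.6. SERBP1, an RNA-binding protein, had a stop codon peak of 600 bases at percentile 96.6, and TSPAN3, a tetraspanin, at 95.7, and control peaks overlapped both. TMSB10 (thymosin beta 10), a very short mRNA, had a peak of 496 bases at 95.7 with an FDR value of 1.60 on the −log10 scale, close to the limit of the list.

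The 12 genes the other way stood lower in their list, between percentiles 60.5 and 78.8. RP11-706O15.3, a non-coding model on chromosome X, led them with a fold of 65.7 and a control peak in place. RPF1 (a ribosome biogenesis factor), TXLNG, EIF2S2 (the beta subunit of eIF2), ETV4 and ETV5 (ETS factors), MICOS13, HMGB2, DCTD, INTS10, DTYMK and DCP1A followed. Apart from RP11-706O15.3 their folds lay between 8.52 and 18.5. Control peaks overlapped those of RP11-706O15.3, EIF2S2, ETV4, DCTD, ETV5 and DCP1A. DCP1A, a cofactor of the decapping enzyme, had a stop codon peak of 400 bases with siRNA 2 at percentile 60.5, and one of 600 bases in control.

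Strong 5′ UTR peaks with siRNA 1 alone lay in genes of several kinds, with respiratory chain subunits among them. Chosen by score after the values were seen, the first 12 lay in SLC7A5, ACTB (beta actin), LY6K, CTSZ, SDF4, CDKN1A (the p53 target p21), NDUFA1, UQCR11 with 2 overlapping peaks, TIMM17A, UQCRH and TIMP1, and none overlapped a control peak. SLC7A5, the gene of the highest peak in both lists, had its 5′ UTR peak of 400 bases at percentile 99.1 with siRNA 1 and none with siRNA 2 or control. NDUFA1, UQCR11 and UQCRH are subunits of the respiratory chain and TIMM17A is a mitochondrial import subunit. The 12 strongest with siRNA 2 alone stood between percentiles 50.02 and 72.1, and among them those in ADAR, GEMIN4, TGFBRAP1, TAOK3 and VBP1 overlapped a control peak.

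Genes with peaks in both lists that did not touch were rare. Of the 8 by the rule of named genes, SMARCC1, a SWI/SNF chromatin subunit, had a 5′ UTR peak with siRNA 1 and a 3′ UTR peak with siRNA 2. ACSL1, a fatty acyl-CoA synthetase, had the same arrangement, and PSIP1 (LEDGF) had a 5′ UTR peak with siRNA 1 and stop codon peak with siRNA 2. CDCA5 (sororin), PLAUR (the urokinase receptor) and ENY2 had a stop codon peak with siRNA 1 and a 3′ UTR peak with siRNA 2. The siRNA 1 peak of ENY2 covered 200 bases annotated as 5′ UTR, coding and stop codon, with a gap of 9447 bases to the siRNA 2 peak. In CDCA5 the gap was 1000 bases. AKIRIN2 and FANCB completed the 8. IGF2BP1, an m6A reader, was another, with a 5′ UTR peak at percentile 37.3 with siRNA 1 and an unannotated peak at 3.98 with siRNA 2.

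Writers and erasers of m6A with a peak were marked by both siRNAs. In the gene lists from here on, a percentile given for a gene is its highest in that siRNA list. The values from the 2 siRNA lists can therefore belong to different peaks of the gene. All 10 of the writer genes with a peak, of 12 listed, had overlapping peaks in both lists, against 78.3% of all genes. These were METTL3, METTL14, WTAP, VIRMA, ZC3H13, RBM15, RBM15B and CBLL1 of the writer complex, and METTL16 and PCIF1, which methylate other sites. All 16 siRNA 2 peaks and 16 of 18 siRNA 1 peaks were shared. RBM15B stood at percentile 98.4 with siRNA 1 and 99.2 with siRNA 2, and METTL3 at 49.6 and 30.6. The METTL3 peak at percentile 49.6 was alone, and its shared 5′ UTR peak had folds of 8.07 and 11.3. The erasers ALKBH5 (97.4 and 97.8) and FTO (44.2 and 62.2) each had 1 shared peak.

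Of 15 reader genes with a peak, 11 were in both lists (73.3%, against 78.3% of all genes), 3 with siRNA 1 alone and 1 with siRNA 2 alone. The paralogues of the target, YTHDF1 and YTHDF3, were in both, at percentiles 94.0 and 92.0 with siRNA 1 and 96.9 and 94.9 with siRNA 2. EIF3A (99.9 in both), PRRC2A (99.5 and 99.3), PRRC2B, PRRC2C, YTHDC1, IGF2BP2 and IGF2BP3 were also shared. HNRNPA2B1 (16.3), HNRNPC (8.67) and RBMX (79.6) had peaks with siRNA 1 alone, and FXR1 (10.9) with siRNA 2 alone. The stop codon peak of RBMX, an RNA-binding protein of the spliceosome, covered 400 bases with siRNA 1 and overlapped a control peak of 600 bases.

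Decay factors stood close to all genes. Of 29 with a peak, 22 were in both lists (75.9%, against 78.3% of all genes), 6 with siRNA 1 alone and 1, DCP1A, with siRNA 2 alone. Those in both included CNOT2, CNOT4, CNOT6 and CNOT9 of the deadenylase that YTHDF2 recruits, DDX6 (97.8 and 94.4), DCP2, the decapping enzyme, and UPF1 (98.8 and 99.2), the helicase of nonsense-mediated decay. TOB1, an adaptor to the deadenylase, stood at 99.5 and 99.0. The rest were BTG1, BTG2, EDC3, LSM1, PAN2, PAN3, POP1, SMG1, SMG5, SMG6, SMG8, TOB2, UPF2 and UPF3A. CNOT1, the scaffold of CCR4-NOT, CNOT8, LSM14A, RIDA (HRSP12, which links YTHDF2 to RNase P/MRP) and UPF3B were among those with a peak with siRNA 1 alone, at percentiles from 8.67 (CNOT8) to 48.8 (LSM14A). A control peak was found for 1 of the 6.

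Reported YTHDF2 targets were in both lists without exception among the 15 with a peak, of 23 listed, against 78.3% of all genes. All 25 siRNA 2 peaks were shared, against 80.5% of all siRNA 2 peaks. Of the siRNA 1 peaks 25 of 32 were shared (78.1%, against 83.6% of all siRNA 1 peaks), so the siRNA 1 list had the extra peaks. The median percentile of these peaks was 69.8 with siRNA 1 and 86.2 with siRNA 2, and sharing climbed with score. AXIN1, a scaffold of Wnt signalling, had a shared 5′ UTR peak with folds of 56.4 and 66.8 and an extra coding peak of 200 bases with siRNA 1. BMP2, a bone morphogenetic protein, stood at percentiles 99.7 and 99.9, CREBBP at 92.6 and 94.9 and EGFR at 98.1 and 97.0. The EGFR stop codon peak of 1400 bases was the same in all 3 lists, and siRNA 1 alone added 200 bases of 5′ UTR. The list was drawn from published work.

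Genes of stress and growth responses were mostly shared. All 37 immediate-early genes with a peak, of 38 listed, and all 25 KLF and AP-1 factors with a peak were in both lists. The share of all genes was 78.3%. These gene lists overlap in members such as FOS, FOSB and ATF3. The median percentile of immediate-early peaks was 82.4 with siRNA 1 and 81.8 with siRNA 2, and sharing climbed with score. CCN1 stood at 99.6 and 98.7 and ATF3 at 81.2 and 77.5. FOS had a shared stop codon peak of 1000 bases and a 5′ UTR peak of 200 bases with siRNA 1 alone. Interferon and double-stranded RNA response genes were in both lists for 20 of 21 (95.2%, against 78.3% of all genes), with IRF2 alone with siRNA 2. ADAR stood highest at 96.3 in a stop codon peak with siRNA 1 and at 98.5 in a 5′ UTR peak with siRNA 2. IFIT1 stood at 68.8 and 80.7, IFIT2 at 74.9 and 85.8, and IFIH1 (MDA5) at 43.1 and 64.0. All 28 siRNA 1 peaks of that list were shared, and 26 of 28 siRNA 2 peaks, against 83.6% and 80.5% of all peaks. The RNA interference machinery was in both lists for 9 of 10 (90%, against 78.3% of all genes). AGO2, the slicer, stood at 90.4 and 91.1, and AGO3 (percentile 5.76) was with siRNA 1 alone.

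Of 19 p53 targets with a peak, 16 were in both lists (84.2%, against 78.3% of all genes). BAX and CDKN1A had a peak with siRNA 1 alone and FDXR with siRNA 2 alone. The CDKN1A peak covered 400 bases of 5′ UTR and coding sequence (chr6:36682720-36684485) with a fold of 23.5 at percentile 91.8, and neither siRNA 2 nor control had a peak in the gene. Of 28 heat shock and unfolded protein response genes, 24 were in both lists (85.7%), 4 with siRNA 1 alone and none with siRNA 2 alone. Of all genes, 9.85% were with siRNA 1 alone and 11.8% with siRNA 2 alone. The 4 were CANX, HSPB1, HSPH1 and XBP1. The stop codon peak of XBP1, the factor spliced in the unfolded protein response, covered 800 bases at percentile 88.0 with siRNA 1, and the same blocks were at percentile 97.2 in control.

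Chromatin regulators were in both lists for 48 of 54 (88.9%, against 78.3% of all genes). BAP1, EZH1, KDM1A and KDM5C had a peak with siRNA 1 alone, HDAC5 and SMARCA2 with siRNA 2 alone, and ARID1A (93.8 and 96.1) and ASXL1 (94.7 in both) were among those in both. Zinc finger genes with ZNF symbols were in both lists for 279 of 317 (88.0%), with 10 marked with siRNA 1 alone and 28 with siRNA 2 alone. Their peaks were shared in 88.7% of 506 siRNA 1 and 75.8% of 566 siRNA 2 peaks, against 83.6% and 80.5% of all peaks. Receptor tyrosine kinases were in both for 15 of 18, with AXL, FGFR3 and FGFR4 with siRNA 1 alone and EPHA2 and DDR1 in both. Matrix and osteoblast genes were in both for 18 of 20, with TIMP1 with siRNA 1 alone and FBLN1 with siRNA 2 alone. Cholesterol synthesis genes were in both for 15 of 17, and MVK, the mevalonate kinase, had a peak with siRNA 2 alone. Mitotic genes were in both for 11 of 13, with INCENP and PLK1 the exceptions, 1 on each side.

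Genes of the respiratory chain and of the ribosome stood below the 78.3% of all genes. Of 27 oxidative phosphorylation genes with a peak, 15 were in both lists (55.6%), 9 with siRNA 1 alone and 3 with siRNA 2 alone. Those with siRNA 1 alone included NDUFA1 (90.9), ATP5MF (70.1), NDUFA2 and NDUFA13 (both 3.05), and control peaks under the same symbol were found for 3 of the 9. The ATP5MF peak overlapped a control peak listed under another symbol. ATP5PB, NDUFA10 and NDUFB10 were marked with siRNA 2 alone. COX6A1 stood at 98.6 and 98.5 in both. Of 19 ribosomal protein genes with a peak, of 76 listed, 12 were in both, RPL22, RPL29 and RPL8 with siRNA 1 alone and RPL14, RPL23A, RPL30 and RPS24 with siRNA 2 alone. All 4 of the latter had a control peak, and none of the 3 former did. RPL13 stood at 99.1 and 99.8.

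Of 12 replication-dependent histone genes with a peak, 5 were in both lists (41.7%, against 78.3% of all genes). H3C4, H4C5, H4C8 and H4C16 had a peak with siRNA 1 alone, at percentiles from 74.5 to 86.6. H2AC14, H3C6 and H4C9 had a peak with siRNA 2 alone, at percentiles from 2.54 to 11.96. Histone genes are near-identical copies, so reads may be split between them and these assignments are uncertain. Of 13 long non-coding RNAs with a peak, from a gene list named nuclear, 9 were in both siRNA lists (69.2%). These 9 included CYTOR, NORAD and OIP5-AS1, and where each member lies in the cell was not checked. The samples were of cytoplasmic RNA, and how much nuclear RNA they held was not tested. MALAT1 had the same peak of 800 bases with folds of 68.8 and 36.2. NEAT1, the scaffold of paraspeckles, had peaks of 800 and 200 bases with siRNA 1 alone, and the wider one, at percentile 85.0, overlapped a control peak. HOTAIR and HOTAIRM1 were marked with siRNA 1 alone and JPX with siRNA 2 alone.

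Autophagy genes were in both lists for 17 of 24 (70.8%, against 78.3% of all genes). ATG13, ATG4D, NBR1 and OPTN had a peak with siRNA 1 alone and ATG14, ATG7 and BECN1 with siRNA 2 alone. Glycolysis genes were in both for 11 of 14 (78.6%, close to all genes), with PFKL with siRNA 1 alone and PFKM and PFKP with siRNA 2 alone. HIF1A, the hypoxia factor, had a shared 5′ UTR peak that control lacked, of 400 bases with siRNA 1 and 200 with siRNA 2. Of 3 snoRNA host genes with a peak, SNHG16 and SNHG7 were in both and SNHG15 with siRNA 1 alone. With lists this short, a share above or below that of all genes is a description of these lists.

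**Figure D5:**
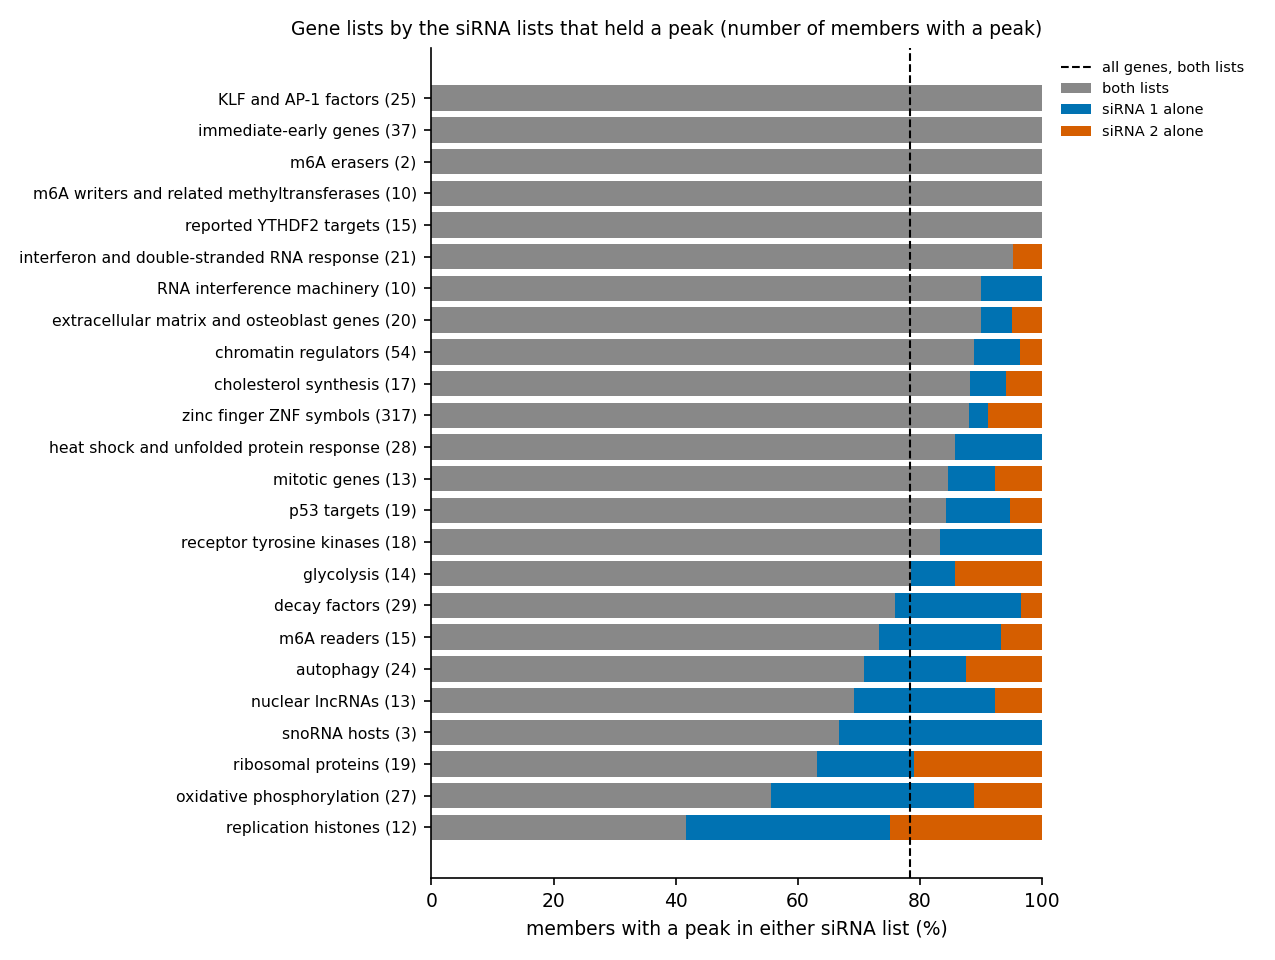
Share of the members of each gene list with a peak (percent, x axis, number of members in brackets) that were marked by both siRNAs (grey), siRNA 1 alone (blue) or siRNA 2 alone (orange), with a dashed line at the 78.3% of all genes marked by both. Writers, erasers, reported YTHDF2 targets, immediate-early genes and KLF and AP-1 factors reach 100%, and replication histones (41.7%), oxidative phosphorylation (55.6%) and ribosomal proteins (63.2%) lie lowest.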

How the data were processed

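Peaks were compared from 3 lists of m6A sites in U2OS cells, 1 per siRNA treatment, and the groups are the treatments in the labels. Per the submitters' processing notes, HISAT2 and the hg38 build were used, and no source used here names the peak caller or the depth of the libraries. The score of each peak is the authors' value, with no definition per the file headers. The fold (ratio) of the m6A-IP over input was computed by the authors, per the file headers. The −log10 FDR is the authors' too, and all peaks lay under an FDR of 0.05.

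Block sizes on the minus strand were reversed before use. Region classes came from the authors' annotation, in the order stop codon, 5′ UTR, 3′ UTR, coding, non-coding RNA. A 5′ UTR peak touches no stop codon and no 3′ UTR. Symbols were updated through the RefSeq table of GRCh38.p14 (7963 of 9528 current, 587 updated, 978 kept), which also gave start sequences and biotypes, and the protein table was not used here. Python 3.11.15, pandas 2.3.3 and SciPy 1.17.1 were used. The overlap code was run on the siRNA 1 list against an altered copy of it. Whether a peak met its own copy was right for 13147 of 13147 peaks, but peaks removed from the copy could not fail. The classes shared and alone were not checked in this way. For 300 of 300 peaks the shared bases equalled a base by base count.

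Named genes were the 10 pairs with the highest mean percentile, 12 genes alone per side, 8 genes with peaks that do not touch, 8 rank gaps and 5 width gaps per direction, the 5 genes with most peaks, up to 4 members per class of a gene list, all members of a class of 5 or fewer, and all m6A and decay genes. The members and lists were chosen with earlier results of these data known. Alternatives covered the overlap, the peaks used, strand, blocks, the 5′ UTR definition, gene names and the value ranked. Some genes that the rule named are not reported here.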

Additional observations from a re-analysis of the deposited data

How the results depend on the processing

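Values below follow the order siRNA 1 share (83.6%), siRNA 2 share (80.5%), genes in both (78.3%), and 5′ UTR share of siRNA 1 alone (36.7%) and siRNA 2 alone peaks (19.2%). When 50% of the bases of each peak had to be common, the peak shares were 75.6% and 74.6% and the siRNA 1 alone 5′ UTR share was 28.7%. With the 10000 highest scores per list, the 5 values were 86.3%, 85.3%, 81.0%, 34.3% and 21.5%. With an FDR under 0.01, genes in both were 76.6% and the 5′ UTR shares 33.6% and 17.1%. In the 50% of each list with the higher fold, the siRNA 2 share was 82.3%, genes in both 75.4% and the 5′ UTR shares 24.9% and 13.97%. With peaks of at least 400 bases, chosen after seeing the data, the values were 86.7%, 82.1%, 79.6%, 28.6% and 15.1%. For the limits on score, FDR, fold and width, both lists were cut before they were compared. A peak or gene whose partner was cut then counted as alone. Against the full siRNA 1 list, siRNA 2 fold deciles 6 to 10 were shared in 95.4% to 99.9% of peaks. With peaks of 5′ UTR alone, the last 2 were 18.5% and 13.7%. The rank correlation of shared peaks was 0.94 by score and 0.82 by fold. The cause of these shifts was not tested. The other 27 values, among them those for either strand, outer spans and gene identifiers, stayed within the interval of the main value, or between 0.91 and 0.94 for the rank correlation. In every alternative the 5′ UTR share was higher for siRNA 1 alone than for siRNA 2 alone peaks. In the cut lists these alone peaks include peaks with a partner in the full list. No paired analysis was possible because each siRNA has 1 merged list. Depth is unknown, so a peak missing from a list may be below detection.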
